A study of Homo sapiens with 6 samples.

Results

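The genes described here are 9 enzymes of serine synthesis and folate-dependent one-carbon metabolism, PSAT1, PHGDH, PSPH, SHMT1, SHMT2, MTHFD1, MTHFD2, MTHFD1L and ALDH1L2, out of 19977 gene symbols measured. They were chosen by symbol as members of one pathway, and the group was drawn around PSAT1 because its change between the groups ran opposite to that of PHGDH and PSPH. The values that selected the group are therefore the differences between siNUDT5 and siCtrl libraries, and for these 9 genes those differences are given as a description, with no p-value and no support drawn from them. All 9 were in the table and all 9 averaged at least 1 TPM, the minimum for the fit described below. The libraries came from U2OS cells, a human osteosarcoma line grown in serum-containing medium, and RNA was taken 48 hours after transfection. The siNUDT5 group held 3 libraries from cells given an siRNA against NUDT5, a NUDIX hydrolase that cleaves ADP-ribose, and the siCtrl group held 3 libraries from cells given a non-targeting siRNA. The labels list both groups as otherwise untreated, and they name neither the siRNA sequences nor how many siRNAs were used. The labels do not say whether the libraries of a group were separate cultures, so the p-values rest on a spread between libraries that may be technical.

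Cells make serine from a glycolytic intermediate, 3-phosphoglycerate. PHGDH oxidises it, PSAT1 transfers an amino group to the product from glutamate, and PSPH removes the phosphate. Serine hydroxymethyltransferases (SHMT1 in the cytosol, SHMT2 in mitochondria) then split serine into glycine and a one-carbon unit carried on folate. In mitochondria MTHFD2 oxidises that unit, and MTHFD1L releases it as formate while ALDH1L2 can oxidise it further to carbon dioxide. In the cytosol MTHFD1 takes formate back onto folate for purine and thymidylate synthesis. Several of these genes, PSAT1, PHGDH, PSPH, SHMT2 and MTHFD2 among them, are known targets of the stress-responsive transcription factor ATF4.

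The targeted gene was low in every siNUDT5 library. NUDT5 stood at 3.04, 2.74 and 2.67 TPM in siNUDT5 libraries 1 to 3 and at 46.2, 49.0 and 52.0 TPM in siCtrl libraries 1 to 3, with p = 0.1 in an exact two-sided permutation test, the smallest p that 3 against 3 libraries can give. TPM scale a gene's reads by transcript length and by the library total and do not keep the total depth. Among genes under 0.3 TPM in siCtrl 1, the commonest ratio to siCtrl 1 was shared, within 0.05%, by 19.7% to 23.6% of the genes in each other library. If that ratio marks equal numbers of reads, the libraries had between 64.1% (siCtrl 2) and 118% (siNUDT5 2) of the depth of siCtrl 1, an estimate that rests on that minority of low genes. siCtrl 2 also lay farthest from its group, with a median absolute difference of 0.296 from siCtrl 1 and 0.227 from siCtrl 3 on the log2(TPM + 1) scale, against 0.0967 to 0.134 in the other pairs within a group. VIM, SPARC and COL1A1, genes of mesenchymal and bone cells, stood at 318 TPM or more in all 6 libraries, RUNX2 and ALPL, both of bone-forming cells, at 6.01 to 13.4 TPM, and COL1A2 did not exceed 0.393 TPM. The summed level of these 6 genes was 4770 to 4874 TPM in siNUDT5 libraries and 4064 to 4361 TPM in siCtrl libraries. Among 5 markers of other cell types, the T cell gene CD3E was at 0 throughout and PTPRC and ALB did not exceed 0.328 TPM. CDH1, an epithelial gene, stood at 1.82 to 2.44 TPM over the 6 libraries. The summed level of those 5 was 7.42 to 7.63 TPM in siNUDT5 libraries and 9.47 to 14.9 TPM in siCtrl libraries, most of it from the epithelial gene EPCAM (5.10 to 12.8 TPM over the 6 libraries), and the part of either sum in the results was not tested. In bulk RNA, fewer cells of a type and less RNA per cell cannot be told apart.

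PSAT1 mRNA was 2.77 times as abundant in siNUDT5 as in siCtrl libraries, SHMT2 mRNA fell to 47.4% of its siCtrl mean, and PHGDH and PSPH stood at 70.6% and 71.1%. The cytosolic enzymes SHMT1 and MTHFD1 and the mitochondrial ALDH1L2 had values that overlapped between the groups. In the fit across all genes (limma on log2(TPM + 1), a two-sided test with p adjusted after Benjamini-Hochberg and a threshold of 0.05), 4 of the 9 passed, 1 higher and 3 lower in siNUDT5, where 16.1% of the 12236 tested genes passed, 10.9% higher and 5.20% lower. The siNUDT5 and siCtrl values lay apart in 6 of the 9, with siNUDT5 above in 1 and below in 5, where 37.3% of all tested genes did so, 24.3% above and 12.9% below. Because the group was drawn on this comparison, nothing is read from these counts. The members' median log2 change was -0.15, beside 0.05 over all tested genes. Across all genes, 1334 passed higher and 636 lower with TPM as deposited, and 1034 higher and 904 lower after median-ratio scaling. The count of members past the threshold was 2 without siNUDT5 3 and 3 to 5 without each other library.

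**Figure D1:**
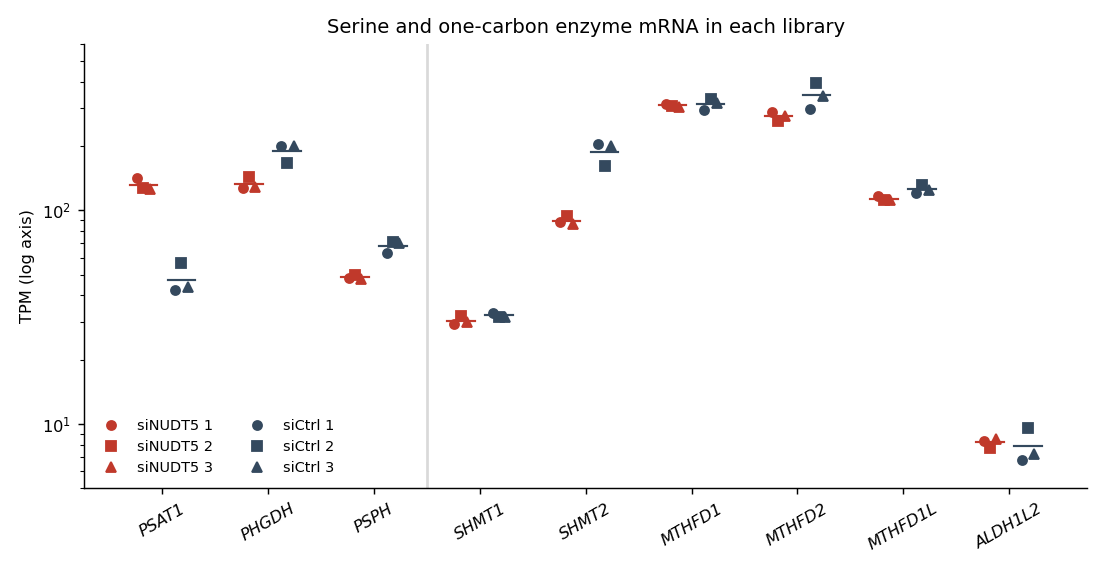
TPM of the 9 enzymes on a log axis, with siNUDT5 libraries in red and siCtrl libraries in dark blue, 1 point for each library and a line at the group mean; the grey vertical line parts the serine synthesis genes from the folate enzymes. PSAT1 is the only one of the 9 whose siNUDT5 values all lie above its siCtrl values, and SHMT2 shows the widest gap in the other direction.

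Of the serine synthesis genes, PSAT1, the phosphoserine aminotransferase, stood at 142, 127 and 125 TPM in siNUDT5 libraries 1 to 3, against 42.2, 56.5 and 43.6 TPM in siCtrl libraries 1 to 3. All siNUDT5 values lay far above the highest siCtrl value, that of siCtrl 2. Its means were 131 ± 9.12 TPM in siNUDT5 and 47.5 ± 7.89 TPM in siCtrl (SD, n = 3 each), a log2 change of 1.46 (standard error 0.122) on the log2(TPM + 1) scale, which all log2 changes here use. Only 21 of the 12236 tested genes had a higher log2 change.

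PHGDH, the dehydrogenase that opens the pathway, stood at 127, 143 and 129 TPM in siNUDT5 libraries, against 199.8, 167 and 199.1 TPM in siCtrl libraries. The groups did not overlap, and siCtrl 2 was the siCtrl library nearest to the siNUDT5 values. The means were 133 ± 8.91 TPM in siNUDT5 and 189 ± 18.9 TPM in siCtrl (SD, n = 3 each), a log2 change of -0.50 (standard error 0.0972). PSPH, the phosphatase of the last step, stood at 48.1, 50.1 and 47.7 TPM in siNUDT5 libraries, against 63.4, 71.2 and 70.5 TPM in siCtrl libraries. Its siNUDT5 values spanned a narrow range below all siCtrl values, with a log2 change of -0.48 (standard error 0.0841).

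The opposite changes left the summed abundance of the 3 serine synthesis genes within the spread of the libraries, at 317, 320.0 and 302 TPM in siNUDT5 and at 305, 294 and 313 TPM in siCtrl libraries. Its make-up differed. PSAT1 held 44.7%, 39.6% and 41.5% of that sum in siNUDT5 libraries, against 13.8%, 19.2% and 13.9% in siCtrl libraries. The ratio of PSAT1 to PHGDH was 0.99 ± 0.116 in siNUDT5 and 0.256 ± 0.0717 in siCtrl, and the ratio of PSAT1 to PSPH was 2.7 ± 0.218 in siNUDT5 and 0.693 ± 0.0911 in siCtrl (SD, n = 3 each). PHGDH and PSPH kept nearly the same ratio to each other, 2.74 ± 0.114 in siNUDT5 and 2.77 ± 0.408 in siCtrl. These ratios compare genes on the TPM scale, which is per length.

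**Figure D2:**
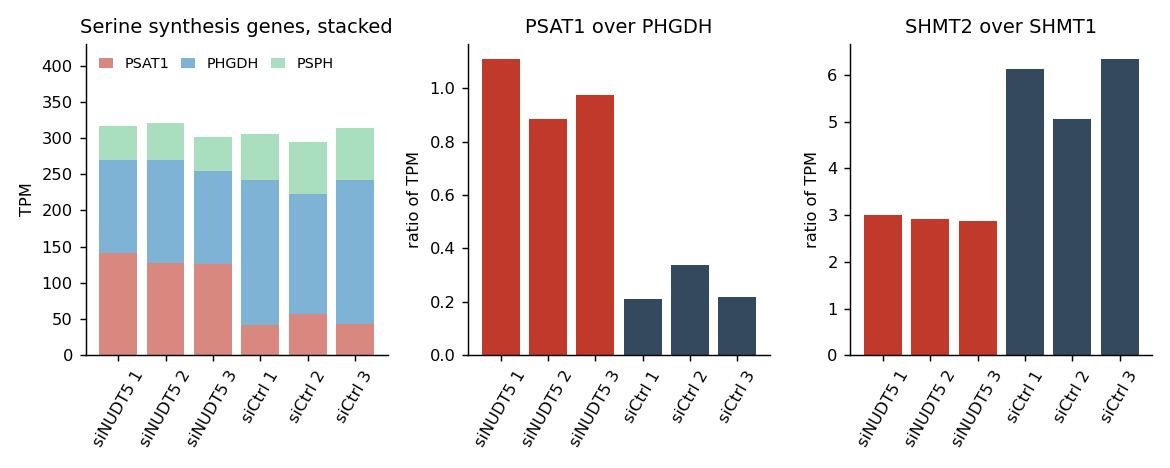
Left, stacked TPM of PSAT1, PHGDH and PSPH in each library; middle and right, the ratio of TPM of PSAT1 to PHGDH and of SHMT2 to SHMT1, with siNUDT5 libraries in red and siCtrl libraries in dark blue. The stacks reach 302 to 320.0 TPM in siNUDT5 and 294 to 313 TPM in siCtrl, while PSAT1 over PHGDH is 0.884 to 1.11 in siNUDT5 and 0.211 to 0.339 in siCtrl.

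The stretches before the annotated start sites of PSAT1 and PHGDH are shown because these neighbouring steps changed in opposite directions, and that of MTHFD1L because it was the one gene of the group with a promoter found to hold the ATF4-type word searched for. Each is the 250 bases before the start on the plus strand, from RefSeq on GRCh38.p14, at chr9:78296875-78297124 for PSAT1, chr1:119711684-119711933 for PHGDH and chr6:150866236-150866485 for MTHFD1L. Capitals mark matches to TGATGNAA, the core of the element that ATF4 and C/EBP factors bind, or to CACGTG, the E-box bound by MYC among other factors.
PSAT1: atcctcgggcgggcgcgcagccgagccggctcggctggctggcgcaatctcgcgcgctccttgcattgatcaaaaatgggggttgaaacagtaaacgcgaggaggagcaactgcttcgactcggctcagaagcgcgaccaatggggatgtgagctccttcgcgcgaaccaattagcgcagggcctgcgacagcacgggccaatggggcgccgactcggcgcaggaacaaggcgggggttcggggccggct
PHGDH: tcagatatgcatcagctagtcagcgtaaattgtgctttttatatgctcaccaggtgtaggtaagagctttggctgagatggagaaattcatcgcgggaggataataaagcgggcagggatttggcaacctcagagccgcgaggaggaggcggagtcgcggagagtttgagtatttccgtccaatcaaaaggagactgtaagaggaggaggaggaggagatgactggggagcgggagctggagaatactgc
MTHFD1L: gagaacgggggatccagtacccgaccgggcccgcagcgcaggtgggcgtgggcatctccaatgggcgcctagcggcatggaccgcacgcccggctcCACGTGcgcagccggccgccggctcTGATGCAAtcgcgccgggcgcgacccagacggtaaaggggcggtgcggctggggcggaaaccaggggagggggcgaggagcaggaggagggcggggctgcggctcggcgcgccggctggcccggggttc
GC content over these 250 bases was 65.6% for PSAT1, 51.2% for PHGDH and 76.0% for MTHFD1L. Promoters of 6 of the 9 genes (PSAT1, PHGDH, SHMT1, MTHFD1, MTHFD2 and MTHFD1L) were searched on both strands, over the 250 bases before and 50 after each start. These genes have 9 promoters in the table, 4 of them of MTHFD1L. TGATGNAA was found in 3 of the 9, all of MTHFD1L, and in 3.62% of all 35116 promoters searched. CACGTG was found in 4 of the 9, the same 3 of MTHFD1L and that of MTHFD1, and in 7.26% of all promoters. The 3 windows of MTHFD1L overlap, and each word is 1 and the same match in all of them. TGACNNNGC, the core of the antioxidant response element bound by NRF2, was found in 1 of the 9, that of MTHFD2, and in 13.3% of all promoters. A match is a run of letters and not a shown binding site, and the windows do not cover introns or distant elements.

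Among the mitochondrial folate enzymes SHMT2 differed most. It stood at 88.0, 93.8 and 86.2 TPM in siNUDT5 libraries, against 204, 161 and 200.3 TPM in siCtrl libraries. All siNUDT5 values lay far below the lowest siCtrl value, that of siCtrl 2. The means were 89.3 ± 3.98 TPM in siNUDT5 and 188 ± 23.7 TPM in siCtrl (SD, n = 3 each), a log2 change of -1.06 (standard error 0.104), and 43 of the 12236 tested genes had a lower one. SHMT2 is the main source of one-carbon units in many proliferating cells.

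SHMT2 was also the only one of the 9 whose longest annotated 3' UTR held either AAGACTT or AGACTTA, words common among genes that were lower in siNUDT5 in these same libraries. The words had been picked on these log2 changes, so their presence is a description. Both lie within 1 run of 8 bases, shown in capitals inside 30 bases of the plus strand at chr12:57234543-57234572 on GRCh38 (GENCODE 29), from base 436 of a 3' UTR of 576 bases.
SHMT2: tttttggtaacAAGACTTAgaaggagggcc
Of 11454 genes with a searched 3' UTR, 436 held this run of 8, and 17.4% of them passed the threshold as lower and 6.19% as higher in siNUDT5, against 5.19% lower and 11.1% higher among all searched genes. None of the 9 genes, PSAT1 included, held GATTAAC, a word picked in the same way among rises, of whose 709 carriers 22.4% passed as higher. Of the other named genes, NUDT5, EIF2AK1 and PSENEN held a word common among lower genes and were lower. MTR, PGK1, ABAT and YWHAG also held such a word but were higher. Among lower genes that held none of the words were CTH, ATF4, NUPR1, SLC7A11, CHAC1 and DDIT4. The word picked among rises was held by SERINC5, YWHAG and SNX3, which were higher, and by EIF2AK1, which was lower. Whether the words have a part in these changes was not tested.

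MTHFD2, the mitochondrial dehydrogenase and cyclohydrolase, stood at 289, 262 and 276 TPM in siNUDT5 libraries, against 299, 394 and 341 TPM in siCtrl libraries. The groups did not overlap, but the gap between siNUDT5 1 and siCtrl 1 was small beside the spread of the siCtrl values, with a log2 change of -0.31 (standard error 0.106). The change was -0.41 without siCtrl 1, -0.21 without siCtrl 2, -0.37 after median-ratio scaling and -0.36 with quantile normalization. MTHFD2 passed the threshold in each of these settings but not with all 6 libraries and TPM as deposited, which is a description only. MTHFD1L, the mitochondrial formate-producing synthetase, stood at 116, 112 and 111 TPM in siNUDT5 libraries, against 121, 132 and 124 TPM in siCtrl libraries. The siNUDT5 values were all lower, by a small margin, with a log2 change of -0.15 (standard error 0.0751). ALDH1L2, the mitochondrial formyltetrahydrofolate dehydrogenase, was the least abundant of the 9, at 8.38, 7.74 and 8.56 TPM in siNUDT5 libraries, against 6.78, 9.64 and 7.25 TPM in siCtrl libraries. Its siNUDT5 values fell inside the siCtrl range, with a log2 change of 0.07 (standard error 0.135) that became -0.01 with quantile normalization and -0.02 without siCtrl 1.

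The summed TPM of the 4 mitochondrial folate genes was 486 ± 13.8 in siNUDT5 and 666 ± 33.8 in siCtrl (SD, n = 3 each), with the 3 siNUDT5 sums of 475 to 502 TPM below the 3 siCtrl sums of 630.0 to 697 TPM. SHMT2 and MTHFD2 made up most of this gap. The ratio of MTHFD2 to SHMT2 was 3.29, 2.79 and 3.20 in siNUDT5 libraries, against 1.47, 2.45 and 1.70 in siCtrl libraries. MTHFD2 thus stood higher relative to SHMT2 in each siNUDT5 library, though both were lower than in siCtrl libraries.

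The values of each cytosolic enzyme overlapped between the groups. MTHFD1, the trifunctional cytosolic folate enzyme, stood at 314, 308 and 306 TPM in siNUDT5 libraries, against 293, 330.0 and 317 TPM in siCtrl libraries. The siNUDT5 values lay inside the siCtrl range, with a log2 change of -0.02 (standard error 0.0728) that was 0.02 without siCtrl 2. SHMT1, the cytosolic counterpart of SHMT2, stood at 29.2, 32.2 and 29.95 TPM in siNUDT5 libraries, against 33.3, 31.8 and 31.6 TPM in siCtrl libraries. The groups overlapped, with a log2 change of -0.08 (standard error 0.0855). The ratio of SHMT2 to SHMT1 was 2.94 ± 0.0668 in siNUDT5 and 5.85 ± 0.686 in siCtrl, and that of MTHFD2 to MTHFD1 was 0.891 ± 0.0369 in siNUDT5 and 1.10 ± 0.0891 in siCtrl (SD, n = 3 each). Neither ratio overlapped between the groups. The summed TPM of SHMT1 and MTHFD1 was 340.0 ± 3.98 in siNUDT5 and 346 ± 17.8 in siCtrl.

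The order of the 9 by mean TPM differed between the groups at MTHFD1 and MTHFD2, which held the top places the other way round, and at PSAT1 and SHMT2. In siNUDT5 libraries it ran from MTHFD1 through MTHFD2, PHGDH, PSAT1, MTHFD1L, SHMT2, PSPH and SHMT1 to ALDH1L2, and only the neighbours PHGDH and PSAT1 had overlapping ranges. In siCtrl libraries it ran from MTHFD2 through MTHFD1, PHGDH, SHMT2, MTHFD1L, PSPH, PSAT1 and SHMT1 to ALDH1L2. There the ranges of MTHFD2 and MTHFD1 and those of PHGDH and SHMT2 overlapped. PSAT1 was the least abundant serine synthesis gene in siCtrl libraries and level with PHGDH in siNUDT5 libraries.

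siCtrl 2, the lowest in estimated depth, held the highest siCtrl value in 6 of the 9 genes (PSAT1, PSPH, MTHFD1, MTHFD2, MTHFD1L and ALDH1L2). It held the lowest in 2 (PHGDH and SHMT2). The matching shares over all tested genes were not computed. siCtrl 2 lay farthest from its group over those genes, so the counts are not read as particular to the 9. Its PSAT1 and SHMT2 values lay toward the siNUDT5 side, and without it the log2 change was 1.59 for PSAT1 and -1.17 for SHMT2. With each library left out in turn, PSAT1 ranged from 1.38 to 1.59, SHMT2 from -1.17 to -1.0, PHGDH from -0.58 to -0.45 and PSPH from -0.53 to -0.45. PSAT1 and SHMT2 passed the threshold whichever library was left out. PHGDH no longer passed without siCtrl 3, siNUDT5 1 or siNUDT5 3, and PSPH no longer passed without siNUDT5 3. The group was drawn on this comparison, so these calls are a description and no support is drawn from them. RefSeq names 4 pseudogenes of PSAT1, 7 of MTHFD2 and 1 each of PSPH, SHMT1 and MTHFD1, none of them in the table. The sources used here do not say how reads shared with such copies were counted.

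**Figure D3:**
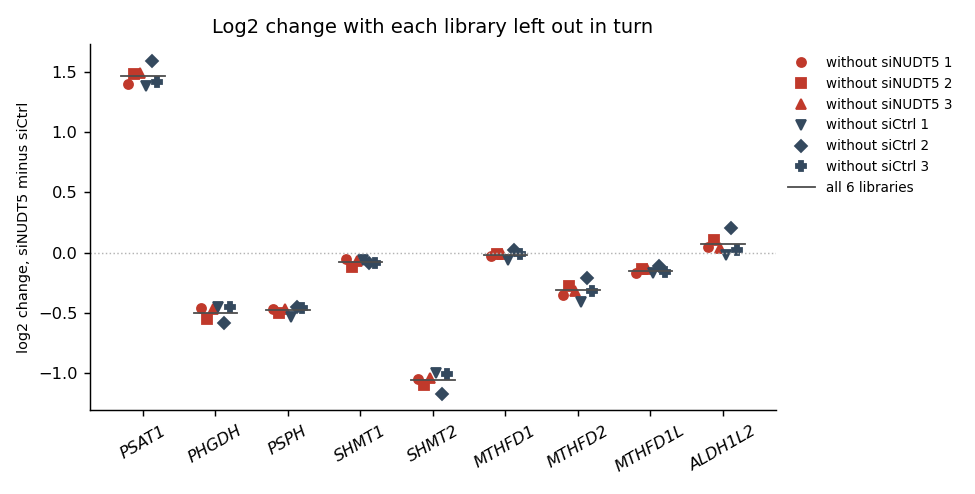
Log2 change, siNUDT5 minus siCtrl, of each of the 9 enzymes with 1 library left out at a time (red symbols for an omitted siNUDT5 library, dark blue for an omitted siCtrl library) and with all 6 libraries (line). PSAT1 stays between 1.38 and 1.59 and SHMT2 between -1.17 and -1.0, while MTHFD1 and ALDH1L2 lie on either side of 0.

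The other genes of the pathway, from 7 lists, were tested in the same fit with adjustment over all 12236 genes, and the 10.9% of genes higher and 5.20% lower are the background for their counts. Of 19 tested genes of serine and glycine handling 3 rose and 1 fell, with a median log2 change of 0.19. SFXN1, a mitochondrial serine carrier, rose to 135 ± 8.72 TPM in siNUDT5, against 88.0 ± 13.1 TPM in siCtrl (SD, n = 3 each, log2 change 0.62, limma adjusted p = 0.00949). SERINC5, a membrane protein first described in serine incorporation into lipids, rose (log2 change 0.89, adjusted p = 0.00839), as did SPTLC2, a subunit of serine palmitoyltransferase (0.43, adjusted p = 0.0229). The neutral amino acid transporter gene SLC1A4, which carries serine, fell to 41.5 ± 3.11 TPM in siNUDT5, against 58.1 ± 3.24 TPM in siCtrl (-0.48, adjusted p = 0.0117). SERINC5 passed whichever library was left out, while SFXN1 lost its call without siNUDT5 1 or 3, SLC1A4 without siCtrl 3 or siNUDT5 3 and SPTLC2 without siCtrl 3 or any 1 siNUDT5 library. The number past the threshold was 7 without siCtrl 1, 12 without siCtrl 2, 2 without siCtrl 3 or siNUDT5 1 and 1 without siNUDT5 3. GLDC and AMT of the glycine cleavage system and the serine dehydratase gene SDS were under 1 TPM in every library and were not tested.

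Of 14 other tested folate genes 1 fell by limma's adjusted p, with a median log2 change of -0.02, and none rose, while at an unadjusted p under 0.05 none was higher. FTCD was too low to test. TYMS, thymidylate synthase, fell to 892 ± 33.0 TPM in siNUDT5, against 1094 ± 44.6 TPM in siCtrl (SD, n = 3 each, log2 change -0.29, limma adjusted p = 0.0209). MTHFD2L, the paralog of MTHFD2, was at 6.61, 7.51 and 7.95 TPM in siNUDT5 libraries, against 6.10, 8.16 and 6.36 TPM in siCtrl libraries, with a log2 change of 0.09 that did not pass (adjusted p = 0.685). TYMS lost its call without siCtrl 3 or any 1 siNUDT5 library, which left none past the threshold, and 4 passed without siCtrl 2.

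Of 10 tested genes of the methionine cycle and transsulfuration 1 rose and 1 fell, with a median log2 change of -0.15. CTH, the cystathionine gamma-lyase that makes cysteine with sulfur from homocysteine, fell to 13.6, 12.4 and 12.9 TPM in siNUDT5 libraries, against 31.0, 34.4 and 31.6 TPM in siCtrl libraries (-1.25, limma adjusted p = 0.000298). MTR, the methionine synthase that uses methyl-folate, rose to 16.6 ± 2.01 TPM in siNUDT5, against 10.9 ± 1.95 TPM in siCtrl (0.57, adjusted p = 0.0327). CTH passed whichever library was left out, and MTR lost its call without any 1 library other than siCtrl 2. The count was 4 without siCtrl 2 and 1 without siCtrl 3 or any 1 siNUDT5 library. After median-ratio scaling 1 rose and 2 fell, and with quantile normalization 1 rose and 4 fell.

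Around 3-phosphoglycerate, where serine synthesis leaves glycolysis, 4 of 9 genes of the steps from triose to pyruvate rose by limma's adjusted p, with a median log2 change of 0.04, and none fell, while at an unadjusted p under 0.05 none was lower. PGAM1, the mutase that carries 3-phosphoglycerate on into glycolysis, rose to 377 ± 17.9 TPM in siNUDT5, against 113 ± 2.77 TPM in siCtrl (SD, n = 3 each, log2 change 1.73, limma adjusted p = 2.77e-05). MINPP1, a phosphatase that also acts on bisphosphoglycerate (0.88, adjusted p = 0.0123), the enolase gene ENO2 (0.57, adjusted p = 0.00666) and the kinase gene PGK1 (0.26, adjusted p = 0.0326) were the others. PGAM1 and ENO2 passed whichever library was left out, while MINPP1 lost its call without siNUDT5 1 or 3 and PGK1 without any 1 library other than siCtrl 2. The count was 2 without siNUDT5 1 or siNUDT5 3. After median-ratio scaling it was 3, as PGK1 did not pass, and with quantile normalization it was 4.

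PSAT1 is a vitamin B6-dependent aminotransferase, and of 14 tested genes for other aminotransferases, glutamate enzymes and vitamin B6 enzymes 2 rose and 1 fell, with a median log2 change of 0.03. ABAT, the GABA transaminase, rose to 11.2 ± 0.378 TPM in siNUDT5, against 5.15 ± 0.263 TPM in siCtrl (0.99, limma adjusted p = 0.000861), and the pyridoxal kinase gene PDXK rose by a log2 change of 0.46 (adjusted p = 0.0163). GPT2, the mitochondrial alanine aminotransferase, fell to 34.8 ± 1.39 TPM in siNUDT5, against 56.9 ± 4.02 TPM in siCtrl (-0.69, adjusted p = 0.00225). ABAT and GPT2 passed whichever library was left out, PDXK lost its call without siCtrl 3 or any 1 siNUDT5 library, and 6 genes passed without siCtrl 2. After median-ratio scaling or quantile normalization 2 rose and 2 fell.

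Among 17 regulators of the pathway 1 rose and 4 fell, with a median log2 change of -0.24. ATF4 fell to 485, 512 and 467 TPM in siNUDT5 libraries, against 1001, 827 and 946 TPM in siCtrl libraries (-0.92, limma adjusted p = 0.000748). ATF3, a stress-induced factor of the same family, fell (-0.64, adjusted p = 0.00373), as did EIF2AK1, a kinase that raises ATF4 translation (-0.53, adjusted p = 0.00666), and MYC (-0.35, adjusted p = 0.0143). KDM4C, a histone demethylase reported to act on serine pathway genes, rose to 4.21 ± 0.313 TPM in siNUDT5, against 2.84 ± 0.284 TPM in siCtrl (0.44, adjusted p = 0.0326). MYC lost its call without siCtrl 3 or any 1 siNUDT5 library and KDM4C without any 1 library other than siCtrl 2. Those omissions left 3 or 5 genes, all lower, and 10 passed without siCtrl 2. With quantile normalization the 5 that passed were all lower.

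Of 29 other tested ATF4 targets 13 fell by limma's adjusted p, with a median log2 change of -0.27, and none rose, while at an unadjusted p under 0.05 none was higher. PSAT1 thus differed in direction from all 13. NUPR1, a stress-induced chromatin protein gene (-1.21, limma adjusted p = 0.000888), the cystine transporter gene SLC7A11 (-1.13, adjusted p = 0.00715), the glutathione-degrading CHAC1 (-1.02, adjusted p = 0.00592) and the mTOR inhibitor gene DDIT4 (-0.99, adjusted p = 0.0013) fell most. Of the members named above as ATF4 targets, PHGDH, PSPH and SHMT2 were lower in siNUDT5 as these were. MTHFD2 (-0.31) had only lower values in siNUDT5 but did not pass, though it passed in some of the other settings. The other 16 of the 29 tested targets did not pass either. The difference between PSAT1 and the list was not tested, since PSAT1 was chosen for it. The count was 5 without siCtrl 3 or any 1 siNUDT5 library.

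**Figure D4:**
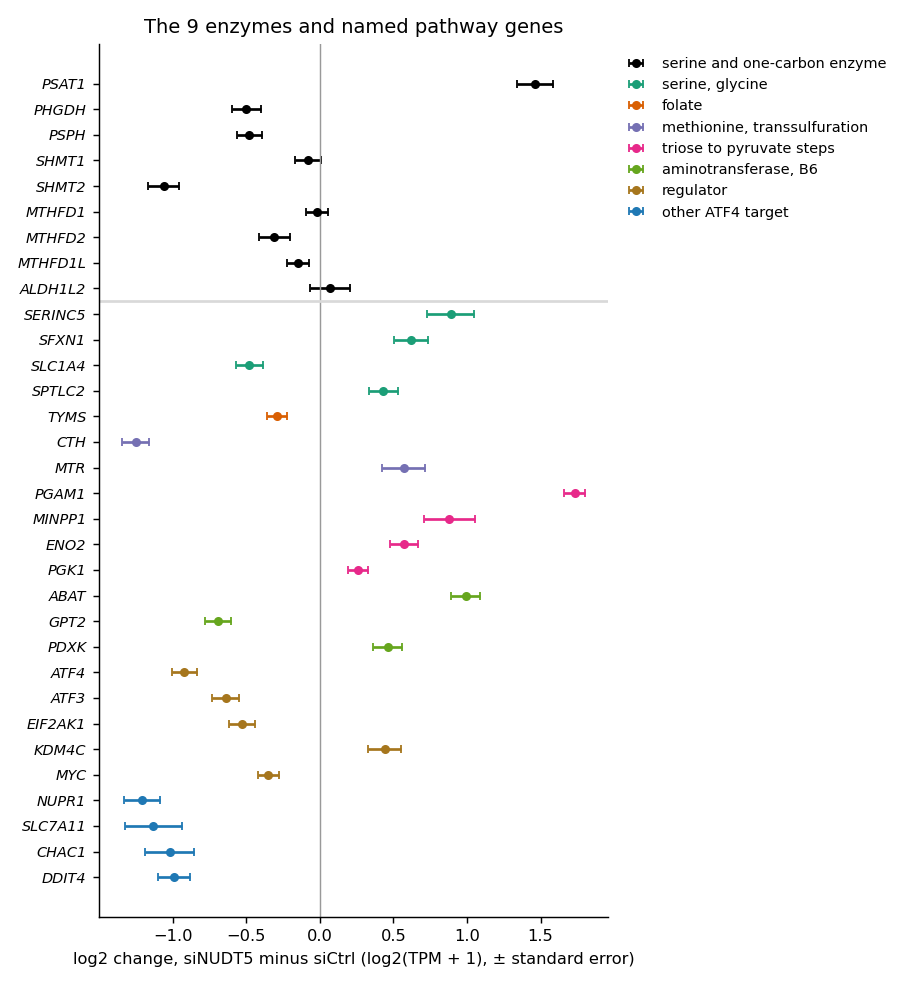
Log2 change, siNUDT5 minus siCtrl, with its standard error, for the 9 enzymes (black, above the grey line) and for named genes past the threshold from the 7 pathway lists (colours), of which the list of other ATF4 targets shows the 4 largest of 13. PSAT1 at 1.46 lies near PGAM1 at 1.73, and SHMT2 at -1.06 lies near CTH at -1.25 and CHAC1 at -1.02.

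The patterns most like that of PSAT1 over the 6 libraries, by Pearson correlation of log2(TPM + 1) among 10005 other genes that averaged 5 TPM or more, were those of SEC24D, YWHAG, TMEM2, SNX3 and ATP6V1B2, each with r of at least 0.998. The libraries fall into the 2 groups, so a gene that differs between them has a high r, and 549 genes had one over 0.95. SEC24D, a coat protein of vesicles leaving the endoplasmic reticulum, was at 33.6 ± 1.23 TPM in siNUDT5 and 21.8 ± 1.68 TPM in siCtrl, and siCtrl 2 was its highest siCtrl library, as for PSAT1. YWHAG, a 14-3-3 protein gene, was at 386 ± 13.8 TPM in siNUDT5 and 195 ± 20.5 TPM in siCtrl (SD, n = 3 each). For PHGDH the nearest were PSENEN, TMSB4X, IMPDH2, C19orf48 and DHRS2, with r of at least 0.995. Within the 9, PSAT1 had its lowest r with SHMT2 (-0.996) and PHGDH (-0.972), and PHGDH had r = 0.981 with SHMT2. MTHFD1 had an r of -0.01 with PSAT1.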

How the data were processed

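Strand-specific libraries were made from 6 U2OS RNA samples with a Roche KAPA mRNA HyperPrep kit, per the labels. The authors deposited TPM per gene symbol, each library summing to 1000000. STAR 2.7.3a, DESeq2 1.22.1 and hg19 are named, without roles, in the submitters' processing notes. The sources used here do not say how TPM were computed.

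The main fit was limma 3.58.1 (R 4.3.3; lmFit, then eBayes with a trend) on log2(TPM + 1), siNUDT5 minus siCtrl. It covered 12236 genes averaging at least 1 TPM, adjusted after Benjamini-Hochberg with a threshold of 0.05. TPM are not counts, so no count model was run, and this log scale understates changes of low genes. Tested on data simulated for this comparison with 12236 genes, the fit recovered 35% of 100 genes changed by 0.5 and 74% of 100 changed by 1 (log2), with 6 false calls. These rates describe the simulated data. They may not hold for the real libraries, in which the number of calls varied with the library left out.

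The members, the 7 lists (126 genes, all matched) and the tests were chosen with earlier results of these data known. Named genes are the 9 members, NUDT5, ATF4, MYC, MTHFD2L, every list gene past the threshold where there were at most 5 and otherwise the 4 largest changes, and the 5 genes most like PSAT1 and the 5 most like PHGDH. Promoter letters are RefSeq's. The 3' UTRs, of at least 50 bases, are from GENCODE 29, found for 11454 tested genes (93.6%). Other settings tried were a pseudocount of 0.1 or 5, no expression filter, a 5 TPM filter, median-ratio scaling, quantile normalization, no trend, a replicate block, and omission of each library. The exact test used scipy 1.17.1 and figures matplotlib 3.10.9. The planned protein comparison was not run, some genes of the folate list are not reported here, and PECAM1 was not analysed here.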

Additional observations from a re-analysis of the deposited data

How the results depend on the processing

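MTHFD1 reversed to 0.02 without siCtrl 2 and lay between -0.06 and 0.02 over the single omissions. ALDH1L2 reversed to -0.01 with quantile normalization and to -0.02 without siCtrl 1, and lay between -0.02 and 0.2 over the omissions. NUDT5 kept its call in each of the 14 alternatives. The number of all genes past the threshold was 764 to 3804 when 1 library was left out, against 1970 with all 6. In the same omissions 2 to 5 members, 1 to 12 serine and glycine genes, 0 to 4 folate genes, 1 to 4 methionine genes, 2 to 4 triose to pyruvate genes, 2 to 6 aminotransferase and vitamin B6 genes, 3 to 10 regulators and 5 to 18 other ATF4 targets passed. The highest count in these omissions fell without siCtrl 2 for all genes and for each of the 7 lists. Quantile normalization gave 3 folate genes and 5 methionine genes, while 0 folate genes passed without a trend and 1 methionine gene without a filter.

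Replicate numbers were not used as pairs in the main fit. The deviations of same-numbered libraries from their group means correlated at -0.426, -0.538 and -0.045, so no shared deviation was seen. With 3 libraries in a group, such correlations cannot show that the libraries were not paired. With the replicate block 739 genes passed, among them 2 members (PSAT1 and SHMT2), 2 serine and glycine genes, 0 folate genes, 1 methionine gene, 3 regulators and 5 other ATF4 targets. The causes of these moves were not tested. Calls of members are a description here too, since the group was drawn on this comparison. Total depth is unknown from TPM, so no counting interval can be given.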
